A study of Camelina sativa with 41 samples.

Results

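The binding sites described here are those of Csa09g088620 and Csa04g023980, transcription factors of the oilseed Camelina sativa named by gene ID. The members are all peaks in the deposited DNA affinity purification sequencing (DAP-seq) lists of these factors, 24765 for Csa09g088620 and 25141 for Csa04g023980, which is 49906 of the 717159 peaks in the 20 lists of the series. A site counts as shared if the nearest summit of the other factor is at most 100 bp away, and as a one-list site if not. The study paired DAP-seq of 22 factors with RNA-seq of seeds at 5, 8 and 11 days post-anthesis, and its title names the control of lipid metabolism. Both lists came from leaf DNA of cultivar Suneson, collected as a pool of leaves from mature plants and labelled deMethylated, because the fragments were amplified by PCR before binding. Each factor was a Halo-tagged protein. The Halo-only sample is not analysed here. Each factor has 1 list, so differences between lists or classes have no replicate check and are given without a test, with 95% intervals that cover counting error only.

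A transcription factor recognises a short DNA word and can bind where that word is accessible. In DAP-seq the factor meets naked fragments of genomic DNA outside the cell, so neither chromatin nor partner proteins from the plant take part, and amplified fragments also carry no DNA methylation. The summit is the single position the peak caller assigns to a binding event, and the distance between the summits of different factors describes how their events are placed relative to each other. The files and the reference table give no name or family for either gene ID, so none is used here.

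The lists were of similar length but mostly held different sites. Of the Csa09g088620 summits, 2508 (10.1%, interval 9.76% to 10.5%) had a Csa04g023980 summit within 100 bp. Of the Csa04g023980 summits, 2527 (10.1%, interval 9.69% to 10.4%) had a Csa09g088620 summit within that distance. The counts differ because some summits were the nearest partner of more than 1 summit, in 12 cases among Csa09g088620 sites and 31 among Csa04g023980 sites. One-list sites numbered 22257 for Csa09g088620 and 22614 for Csa04g023980. A one-list site was usually far from the other factor, with a median distance of 8075 bp from Csa09g088620 sites to the nearest Csa04g023980 summit and 8078 bp in the other direction.

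Where the factors met, their summits tended to sit at 1 of 3 exact offsets: the same base, or 4 bp to either side. Among the 2508 shared Csa09g088620 sites, 891 (35.5%, interval 33.7% to 37.4%) had the Csa04g023980 summit at the same position. A further 474 (18.9%, interval 17.4% to 20.5%) had it 4 bp away, 242 of them at the lower coordinate and 232 at the higher. Together these offsets held 1365 shared sites (54.4%, interval 52.5% to 56.4%). The remaining shared sites comprised 497 at 1 to 20 bp other than 4 bp and 646 at 21 to 100 bp. The median distance over all shared sites was 4 bp.

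The offsets next to 0 and 4 bp were far less used. Counting every pair of summits, 891 pairs lay at 0 bp, 31 at -1 bp and 25 at +1 bp. At -3, -4 and -5 bp there were 22, 242 and 19 pairs, and at +3, +4 and +5 bp there were 13, 233 and 15. No single offset from 6 to 100 bp on either side held more than 22 pairs, and the median was 5. The number of pairs per offset declined from 11.4 at 6 to 10 bp to 5.4 at 21 to 50 bp and 3.55 at 51 to 100 bp. It was 1.22 at 1001 to 2000 bp and 1.07 at 10001 to 20000 bp, still falling but more slowly. The 201 offsets up to 100 bp thus held 2544 pairs, against 435 pairs at the 200 offsets from 101 to 200 bp.

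**Figure D1:**
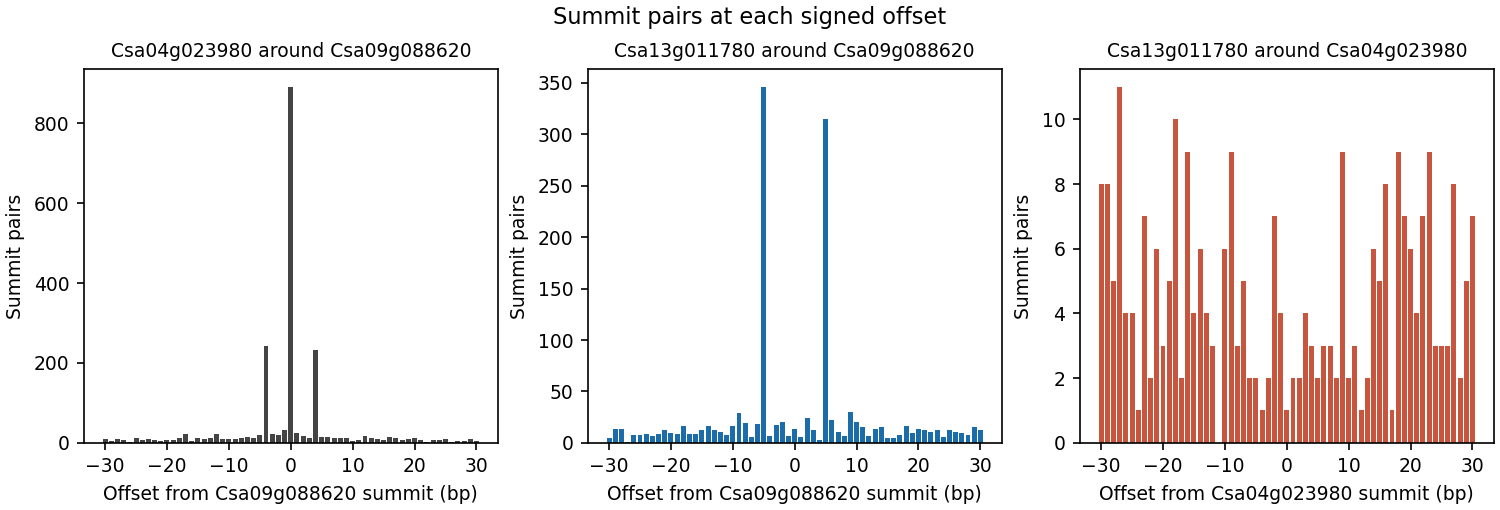
Number of summit pairs (vertical axis) at each signed offset in bp (horizontal axis, shown to 30 bp), for Csa04g023980 summits around Csa09g088620 summits, and for Csa13g011780 summits around each of these factors. The first panel has bars of 891 pairs at 0 bp, 242 at -4 bp and 233 at +4 bp; Csa13g011780 has bars of 346 and 315 pairs at -5 and +5 bp around Csa09g088620 and no such bars around Csa04g023980. The vertical scales differ.

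These offsets recurred on each of the 20 chromosomes. The share of shared Csa09g088620 sites at 0 or 4 bp ran from 43.8% on chromosome 16 to 67.4% on chromosome 2, with a median of 53.7%. The share at 0 bp ran from 26.1% on chromosome 1 to 47.7% on chromosome 20, and the share at 4 bp ran from 11.9% on chromosome 14 to 25.9% on chromosome 7.

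Shared sites had more signal than one-list sites of the same list. Signal is the authors' value per peak in no stated unit, so it is compared only within a list. In the Csa09g088620 list the median signal was 94 at shared sites (interval 92 to 96.2) and 76 at one-list sites (interval 75.8 to 76.7), a ratio of 1.24. The middle 50% of values spanned 72 to 128.7 at shared sites and 60 to 102 at one-list sites, so the classes overlapped broadly. In the Csa04g023980 list the median was 68 at shared sites (interval 64 to 71.8) and 55 at one-list sites (interval 54.1 to 55.6), again a ratio of 1.24. Here the middle 50% spanned 38.6 to 135.9 at shared sites and 36.4 to 100 at one-list sites. By chromosome, the median signal was higher at shared than at one-list sites on 20 of 20 chromosomes for Csa09g088620 and on 19 of 20 for Csa04g023980. The median −log10 q, which the authors also list per peak, was 8.58 at shared and 5.76 at one-list Csa09g088620 sites, and 10.9 at shared and 7.11 at one-list Csa04g023980 sites.

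The single highest peak of each list was a one-list site, but one-list sites were far more numerous, and the share of shared sites was greatest among the 10% of sites with the most signal (19.0% for Csa09g088620 and 17.0% for Csa04g023980). The maximum signal in the Csa09g088620 list was 388.8 among shared sites and 616 among one-list sites. In the Csa04g023980 list it was 599.9 among shared sites and 718 among one-list sites.

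The median signal was highest where the summits lay 4 bp apart. For Csa09g088620 the median was 109.3 at 4 bp (interval 102 to 116), 97.8 at 0 bp (93.3 to 101), 92 at other distances up to 20 bp (89 to 96.4), 85.7 at 21 to 100 bp (82 to 87.4) and 75.3 beyond 1000 bp (75 to 76). At 101 to 1000 bp, outside the limit for a shared site, it was 82 (80 to 83.8), so its decline with distance went on past 100 bp. For Csa04g023980 the median was 92.6 at 4 bp (80 to 101), 76 at 0 bp (70 to 84) and 66.7 at other distances up to 20 bp (60.3 to 75.9). The interval at 0 bp overlapped both of the others, but those at 4 bp and at other distances up to 20 bp did not overlap. At 21 to 100 bp it was 48.2 (45 to 52.2), below the 55 (54.4 to 56) of sites beyond 1000 bp. Shared Csa04g023980 sites with a partner at 21 to 100 bp thus had no more signal than sites far from any Csa09g088620 summit. At the limit itself, the 44 Csa09g088620 sites with a partner at 91 to 100 bp had a median signal of 78.9, and the 43 at 101 to 110 bp had 86. The medians of Csa04g023980 sites in these distance ranges were 62.1 and 42.7.

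**Figure D2:**
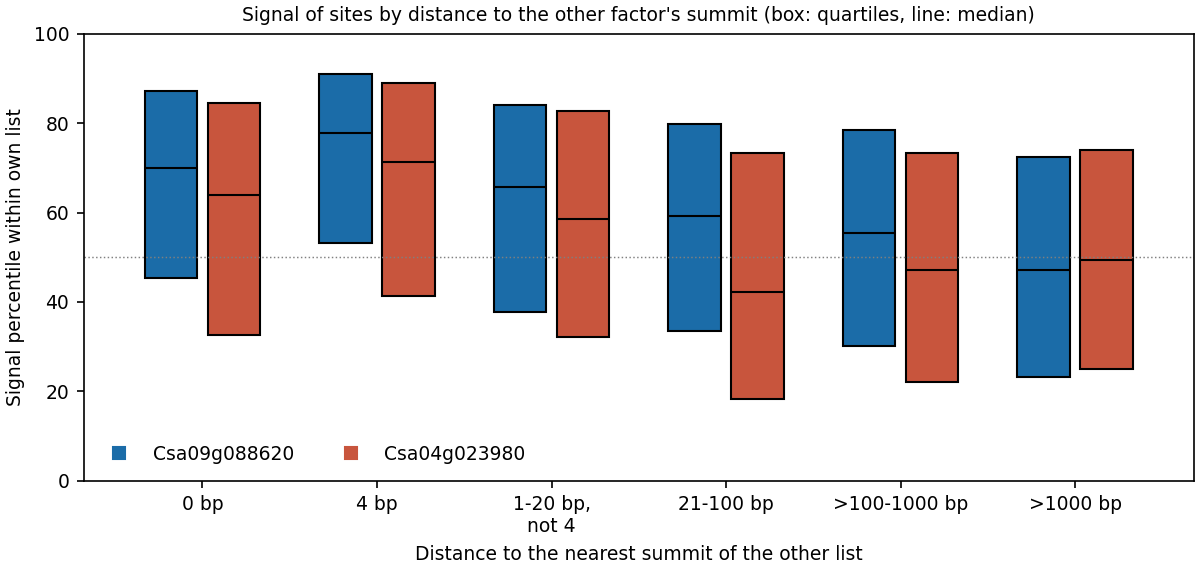
Signal percentile within the site's own list (vertical axis) by distance to the nearest summit of the other list (horizontal axis), for Csa09g088620 (left box of each pair) and Csa04g023980 (right box). Boxes span the quartiles and lines mark medians; the medians at 4 bp are percentile 77.7 for Csa09g088620 and 71.2 for Csa04g023980, against 47.2 and 49.3 beyond 1000 bp.

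The relation of sharing to signal differed in shape between the lists. When each list was divided into 10 bins by signal, the shared share of Csa09g088620 sites was 4.04% in the lowest bin (interval 3.34% to 4.88%) and 19.0% in the highest (17.5% to 20.6%), and it was higher in each bin than in the one below. For Csa04g023980 it was 10.4% in the lowest bin (9.27% to 11.6%), between 7.77% and 8.42% in the next 5 bins, and 17.0% in the highest (15.5% to 18.5%). The difference in the lowest bins lay in part in loose pairs. Partners at 21 to 100 bp were found for 1.51% of the Csa09g088620 sites in the lowest bin and 3.46% in the highest, whereas for Csa04g023980 these shares were 3.99% and 2.54%. Partners at 0 bp were found for 1.11% of Csa09g088620 sites in the lowest bin and 7.21% in the highest, and for 3.10% and 6.39% of Csa04g023980 sites. At 4 bp the shares in the lowest and highest bins were 0.317% and 5.23% for Csa09g088620 and 1.20% and 4.53% for Csa04g023980.

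**Figure D3:**
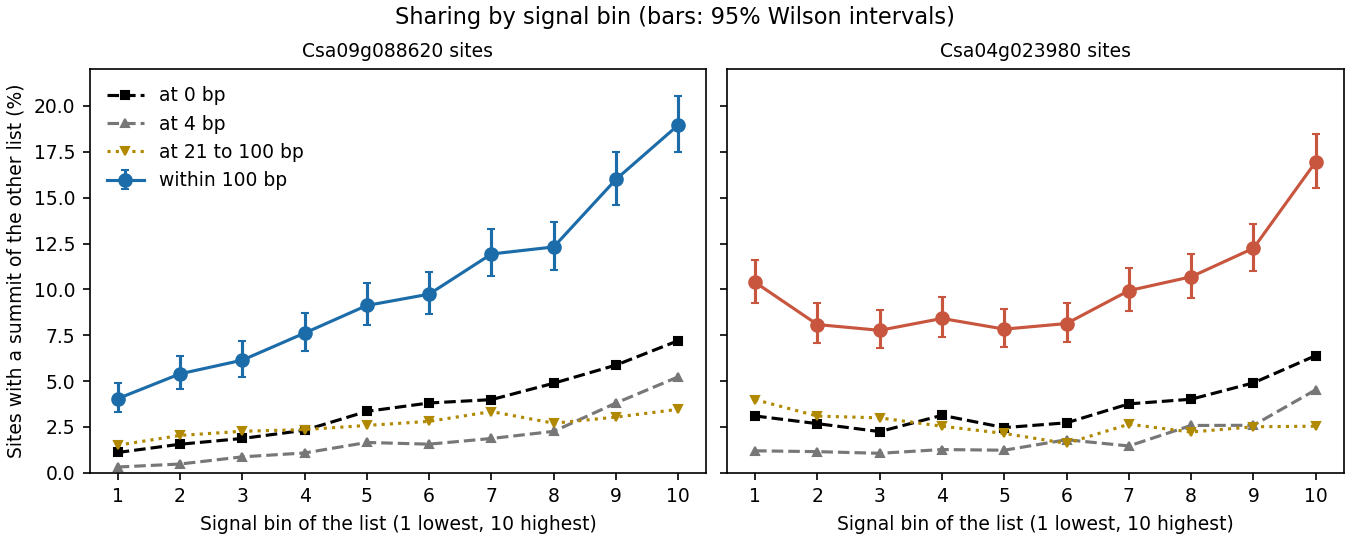
Percentage of sites with a summit of the other list (vertical axis) by signal bin of the list (horizontal axis, 1 lowest, 10 highest), for Csa09g088620 (left) and Csa04g023980 (right). Solid lines with 95% Wilson intervals give partners within 100 bp; the other lines give partners at 0 bp, at 4 bp and at 21 to 100 bp. The Csa09g088620 line climbs from 4.04% to 19.0%, and the Csa04g023980 line is 10.4% in the lowest bin, dips, and reaches 17.0%.

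The strength of one factor at a shared site was only weakly related to that of the other. Across the 2508 shared sites the rank correlation of the signals was low (Spearman's rho 0.21, a description across sites, which share their libraries). Within the higher-signal 50% of each list, a narrower range of signals, it was 0.0769. Over all signals it was 0.27 over the 891 sites at 0 bp, 0.18 over the 474 at 4 bp, 0.13 over the 497 at other distances up to 20 bp and 0.10 over the 646 at 21 to 100 bp. Of the shared sites, 471 were in the highest 10% of Csa09g088620 signals, of which 120 were also in the highest 10% of Csa04g023980 signals and 144 were in the lower 50% of that list. Over all 2508 shared sites, 427 (17.0%) were in the highest 10% of Csa04g023980 signals, of which 96 were in the lower 50% of the Csa09g088620 list. The lower 50% is a wider class than the highest 10%, so the counts in these classes are not directly comparable. The 120 of 471 sites are a larger share than the 17.0% over all shared sites. How many of all shared sites lie in the lower 50% of each list was not counted, so the 144 and 96 sites have no such comparison.

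The shared sites with the highest mean signal percentile in both lists were on chromosomes 10, 16 and 11. Positions are those the authors give, on a genome build that the sources used here do not name. On chromosome 10, Csa09g088620 had a summit at 10071525 with a signal of 294, and Csa04g023980 had one 68 bp away at 10071457 with a signal of 545.7. On chromosome 16 the summits were 4 bp apart, at 5704106 for Csa09g088620 (signal 272.1) and 5704102 for Csa04g023980 (signal 567.8). On chromosome 11 they were 69 bp apart, at 11972282 for Csa09g088620 (signal 269) and 11972213 for Csa04g023980 (signal 448.1). No other list had a summit within 100 bp of these 3 Csa09g088620 summits.

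The one-list sites with the most signal included close neighbours in both lists. For Csa09g088620 the highest was on chromosome 5 at 27262422, with a signal of 616, and the next was on the same chromosome at 27263008, with 554. Their nearest Csa04g023980 summits were 54488 and 55074 bp away, and Csa06g004330 had a summit within 100 bp of each. The next Csa09g088620 site was on chromosome 15 at 6125531, with a signal of 528, a Csa04g023980 summit 52706 bp away, and a Csa02g073390 summit within 100 bp. The −log10 q of the highest site was only 8.89, against 40.9 and 30.9 for the other 2. For Csa04g023980 the highest sites were on chromosome 9 at 31866840 and 31866555, with signals of 718 and 709.8, and on chromosome 16 at 23558466, with 701.3. These lay 1166, 1451 and 1978 bp from a Csa09g088620 summit, so they were nearer to the other factor than the usual one-list site. Only that on chromosome 16 had a summit of another list within 100 bp, that of Csa06g004330.

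Shared sites were somewhat closer to other sites of their own list. For Csa09g088620 the median distance to the nearest summit of the same list was 5466 bp at shared sites (interval 5043 to 6004) and 6833 bp at one-list sites (6685 to 7023). For Csa04g023980 it was 5924 bp at shared sites (5533 to 6348) and 6818 bp at one-list sites (6665 to 6990). A same-list neighbour within 1000 bp was found for 16.8% of shared Csa09g088620 sites (interval 15.4% to 18.3%) and 14.2% of one-list sites (13.8% to 14.7%). For Csa04g023980 these shares were 16.0% of shared sites (14.6% to 17.5%) and 14.7% of one-list sites (14.2% to 15.2%), with overlapping intervals. Of the gaps between consecutive shared Csa09g088620 sites, 57 were at most 1000 bp, and the median gap was 150810 bp.

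Summits of one list came closer together for Csa04g023980 than for Csa09g088620. The Csa09g088620 list had 3 gaps of at most 50 bp and 48 of at most 100 bp, and its closest summits were 34 bp apart. The Csa04g023980 list had 49 gaps of at most 50 bp and 212 of at most 100 bp, and its closest summits were 4 bp apart. Up to 1000 bp the lists were similar, with 1848 gaps for Csa09g088620 and 1949 for Csa04g023980.

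Both factors had sites on all 20 chromosomes at near-even density. Chromosome lengths were not given, so the span to the farthest summit of any of the 20 lists was used, which ran from 20.9 Mb on chromosome 18 to 49.7 Mb on chromosome 11. Csa09g088620 had 37.5 sites per Mb on chromosome 4 and 46.7 on chromosome 10, its lowest and highest. Csa04g023980 had 38.5 sites per Mb on chromosome 15 and 43.4 on chromosome 3. Shared Csa09g088620 sites ran from 3.5 per Mb on chromosome 8 to 4.87 on chromosome 12.

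The shared share on most chromosomes was close to that over the whole list. The intervals of the lowest and highest chromosomes did not overlap in either list. These chromosomes were picked as the extremes of 20, so the lack of overlap is not a test of a difference. For Csa09g088620 it was lowest on chromosome 17, with 125 of 1511 sites (8.27%, interval 6.99% to 9.77%), and highest on chromosome 12, with 161 of 1311 (12.3%, 10.6% to 14.2%). For Csa04g023980 it was also lowest on chromosome 17, with 125 of 1504 sites (8.31%, 7.02% to 9.81%), and highest on chromosome 5, with 174 of 1468 (11.9%, 10.3% to 13.6%). On 17 of 20 chromosomes the interval held the share over the whole list, in each list, and the exceptions were chromosomes 5, 12 and 17 in both. Shared sites are mostly the same positions in both lists, so the lists do not support each other on this. Along the chromosomes, divided into 10 equal stretches of the span, the shared share stayed between 9.41% and 10.8% for Csa09g088620 and between 8.79% and 11.4% for Csa04g023980.

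**Figure D4:**
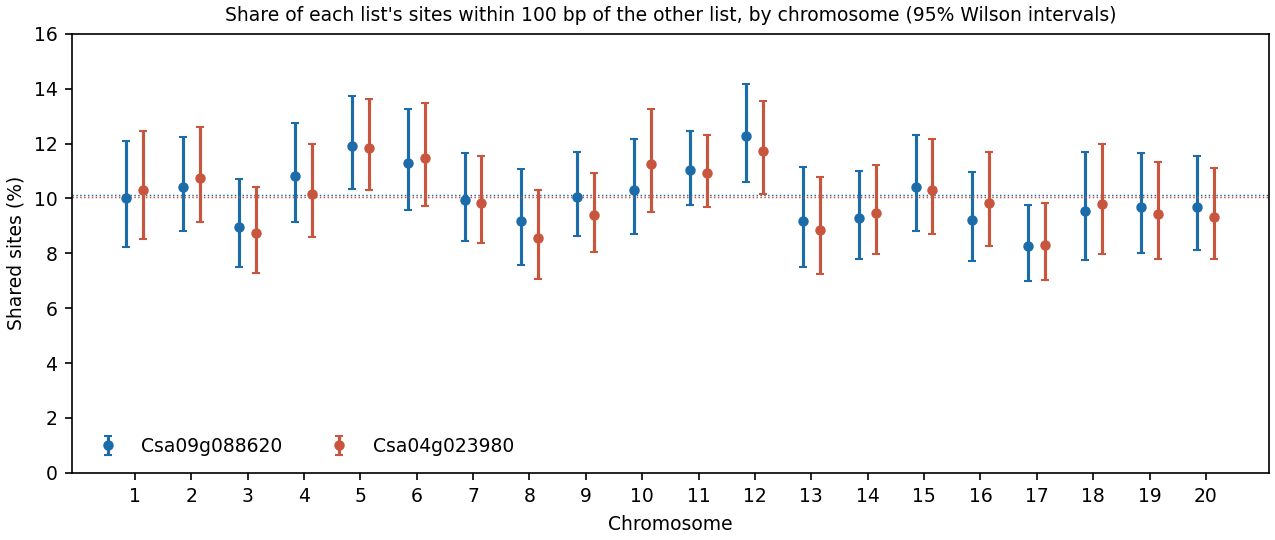
Percentage of each list's sites that are shared (vertical axis) on each chromosome (horizontal axis), for Csa09g088620 (left point of each pair) and Csa04g023980 (right point), with 95% Wilson intervals; dotted lines mark the share over each whole list. Chromosome 17 is lowest in both lists (8.27% and 8.31%), and chromosomes 5 and 12 stand above the lines.

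The one-list sites differed in how often they coincided with other factors. Among the other 18 lists, at least 1 had a summit within 100 bp of 32.5% of shared Csa09g088620 sites (interval 30.7% to 34.4%) and 41.9% of its one-list sites (41.2% to 42.5%). For Csa04g023980 the shares were 32.6% of shared sites (30.8% to 34.4%) and 26.1% of one-list sites (25.6% to 26.7%). Shared sites thus lay below the one-list sites of Csa09g088620 and above those of Csa04g023980. The share at positions outside both lists was not measured, so these shares are only compared with each other. Sites met by 3 or more of the other lists were few, with 1.83% of shared and 3.18% of one-list Csa09g088620 sites, and 1.58% of shared and 0.911% of one-list Csa04g023980 sites.

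The same order was seen in the longer lists, but not in all lists. In each of the 10 other lists with 2000 or more peaks, the share of shared Csa09g088620 sites with a summit was below that of one-list Csa09g088620 sites. In the same 10 lists the share of shared Csa04g023980 sites was above that of one-list Csa04g023980 sites. The differences were small for several lists, with overlapping intervals. The short Csa05g079950 list (620 peaks), chosen after its values were seen, went the other way for Csa09g088620, at 9 shared sites (0.359%, interval 0.189% to 0.681%) and 13 one-list sites (0.0584%, interval 0.0341% to 0.0999%). The lists most often found at shared Csa09g088620 sites were those of Csa02g073390 (9.53% of shared and 11.6% of one-list sites), Csa13g011780 (6.30% and 10.5%) and Csa13g019570 (5.90% and 7.60%). For Csa04g023980 the Csa02g073390 list was found at 9.73% of shared and 7.78% of one-list sites, the Csa13g011780 list at 6.25% and 3.70%, and the Csa13g019570 list at 5.90% and 5.40%. These lists are much longer, and as a share of their own summits 2.17% of Csa02g073390, 3.45% of Csa13g011780 and 1.87% of Csa13g019570 lay within 100 bp of a Csa09g088620 summit. The shares near a Csa04g023980 summit were 1.54%, 1.37% and 1.39%.

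**Figure D5:**
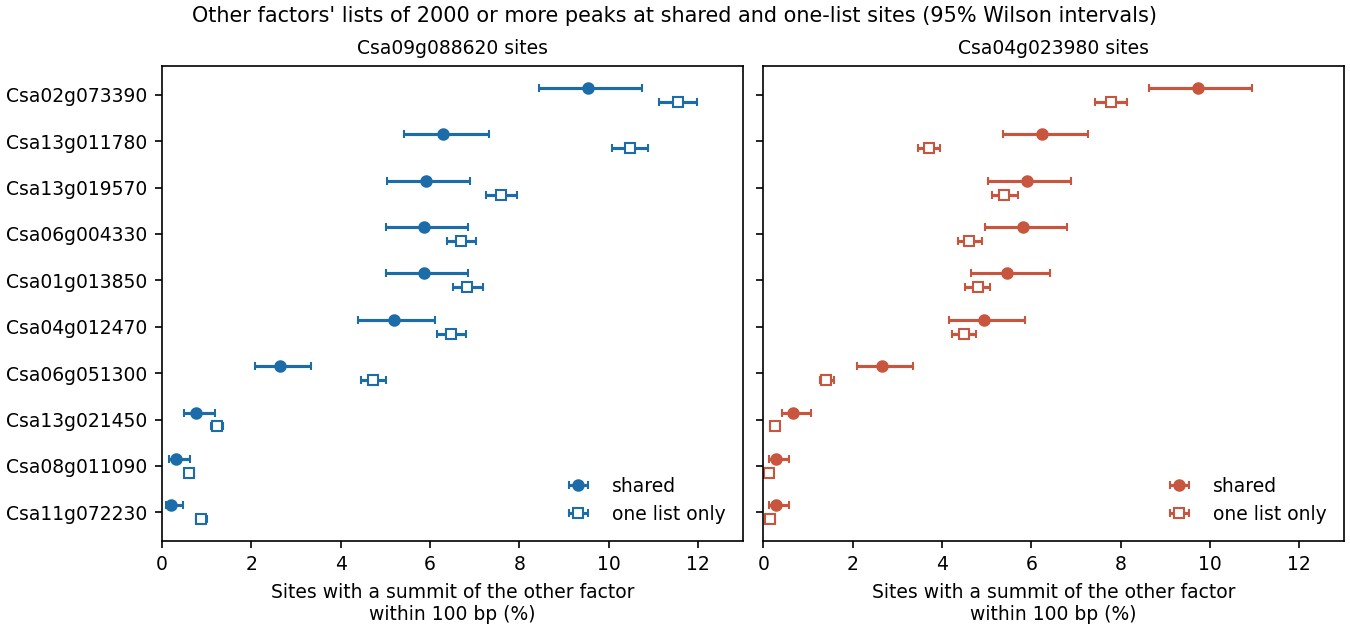
Percentage of sites with a summit of another factor's list within 100 bp (horizontal axis) for each of the 10 other lists of 2000 or more peaks (vertical axis), at shared sites (filled circles) and one-list sites (open squares) of Csa09g088620 (left) and Csa04g023980 (right), with 95% Wilson intervals. Circles lie left of squares for Csa09g088620 and right of them for Csa04g023980.

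No other of these lists met either factor base for base in such numbers. Of the 10 lists, the most frequent at exactly 0 bp from the nearest Csa09g088620 summit was that of Csa04g012470, with 17 sites, although it shared 1571 sites within 100 bp. For Csa04g023980 the most frequent was also Csa04g012470, with 6 sites of 1140 shared. At exactly 4 bp the highest counts were 26 for Csa09g088620 and 18 for Csa04g023980, both with Csa02g073390. Between Csa09g088620 and Csa04g023980 the counts were 891 at 0 bp and 474 at 4 bp. These offsets were picked because this pair had its highest counts there, so the other lists could be expected to have fewer. The comparison therefore does not show that exact spacing is particular to this pair. Csa13g011780, for example, lay at exactly 5 bp from 661 Csa09g088620 sites.

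In seeds the factors' own transcripts were scarce. Csa09g088620 had 0 counts in all 9 seed libraries, where 3 counts, the limit that a count of 0 allows, correspond to 0.0640 to 0.192 CPM (counts divided by the library's total and scaled). Csa04g023980 had 1, 1 and 0 counts in the 3 libraries at 5 days, 9, 8 and 18 at 8 days, and 151, 66 and 76 at 11 days. In CPM its level was 0.0298 ± 0.0321 at 5 days, 0.295 ± 0.154 at 8 days and 2.16 ± 0.937 at 11 days (SD, n = 3 each). The libraries of the 3 ages did not overlap, with 11-day replicate 1 the highest at 3.22 CPM and the others of that age at 1.44 and 1.83 CPM. The change with age was not tested here.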

How the data were processed

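DAP-seq peaks are events of the GEM caller in narrowPeak layout, per the deposited files' names, with 1 list per factor. Each deposited peak has a score of at most 1000, a signal whose unit is not stated, and p and q as −log10 values; −log10 q was at least 2. GEM can use DNA motifs when it places events. The sources used here do not say whether it did so or whether a list pools duplicate assays. They also do not say how many reads each list rests on or which build was used. The part of motif use and of the other processing in the exact offsets was not tested. The summit is the authors' position, at the centre of a 201 bp peak except for 1 Csa04g023980 peak. Aligners named in the submitters' processing notes, with no role, are HISAT2 2.0.4 and Bowtie2 2.3.4.1, beside Trimmomatic, FastQC and bcl2fastq 2.20.0.

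Each summit was matched to the nearest summit of the other list, and offsets are Csa04g023980 minus Csa09g088620. Shares have 95% Wilson intervals and medians 95% order-statistic intervals. The matching was checked on simulated lists with planted offsets. Seed counts per gene are whole numbers as the authors deposited them. The 2 runs of each library were summed, except that a resequenced column of 5-day replicate 1, identical to that of replicate 2, was left out for replicate 1. Library totals were 15659011 to 46863553 counts, and CPM scale to them. The deposited gene length, another column in bases, was not used. Near-identical gene copies may share or lose reads in this hexaploid genome, so the counts of both factors are uncertain. Counting intervals and limits cover counting error only.

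Sites named singly are the 3 shared sites with the highest mean signal percentile and the 3 one-list sites of each list with the most signal. Named lists are the 3 found at most shared sites, and named chromosomes are the extremes. Csa13g011780 in the closing section and the offset classes were chosen after their values were seen. The members, classes and rules were chosen with earlier results of these data known. Alternatives were 50 and 200 bp, the higher-signal 50% of each list, −log10 q of at least 3, mutual nearest summits, close summits joined, and other neighbour distances; those for the offset shares were added after seeing the data. No sequence was used, as no genome was given. Python 3.11.15, NumPy 2.4.6, SciPy 1.17.1, pandas 2.3.3 and Matplotlib 3.10.9 were used.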

Additional observations from a re-analysis of the deposited data

How the results depend on the processing

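No alternative turned a direction: shared sites kept a higher median signal than one-list sites in both lists under each of the 7 list settings. The shared shares of Csa09g088620 and Csa04g023980 were 8.79% and 8.70% at 50 bp, 11.6% and 11.6% at 200 bp, 8.49% and 8.44% in the higher-signal 50% of each list, and 9.63% and 9.56% at −log10 q of at least 3. In the higher-signal 50% the median signals at shared sites were 119.3 and 125 (103.5 and 102 at one-list sites), and at −log10 q of at least 3 they were 100 and 83.4 (83 and 65 at one-list sites). The rank correlation of the signals at shared sites was 0.0769 in the higher-signal 50%, which holds a narrower range of signals. The share of shared sites at 0 bp and at 4 bp was 40.9% and 21.8% of those within 50 bp, 31.0% and 16.5% of those within 200 bp, 40.1% and 24.7% in the higher-signal 50%, and at 4 bp 20.9% at −log10 q of at least 3.

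A same-list neighbour lay within 500 bp of 9.29% of shared and 7.39% of one-list Csa09g088620 sites and of 10.4% and 9.16% of Csa04g023980 sites; within 2000 bp of 26.7%, 22.8%, 26.2% and 22.9%. At least 1 other list had a summit within 50 bp of 19.2% of shared and 25.9% of one-list Csa09g088620 sites and of 19.0% and 14.2% of Csa04g023980 sites; within 200 bp the shares were 49.0%, 60.0%, 49.3% and 43.1%. The other 36 values stayed within the interval of the reported value. Restricting to numbered chromosomes, which is counted among the list settings, changed nothing, as no peak lies elsewhere. Its values are among these 36 and could not have moved. No paired analysis was possible because each factor has 1 list. Depth per list is unknown, which limits any reading of list length or of sites missing from a list.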

Other observations

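Csa13g011780, the factor of a longer list (72460 peaks), met Csa09g088620 at a different exact offset. Its summits lay 5 bp from 661 Csa09g088620 sites, 346 at the lower coordinate and 315 at the higher, which is 26.5% of the 2491 Csa09g088620 sites that had it within 100 bp and 0.912% of its own summits. At -4 and +4 bp there were 7 and 3 pairs, and at 0 bp 13. Around Csa04g023980, by contrast, it lay 5 bp away at 4 of the 995 sites that had it within 100 bp.

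The Csa09g088620 sites with Csa13g011780 at 5 bp were largely not those with Csa04g023980 at an exact offset. Csa13g011780 lay at 5 bp at 0 of the 891 Csa09g088620 sites where Csa04g023980 was at 0 bp, which allows a share of up to 0.337% by the limit of 3 counts and 0.429% by the Wilson interval. It did so at 1 of the 474 with Csa04g023980 at 4 bp, at 11 of the 1143 with Csa04g023980 elsewhere within 100 bp (0.962%), and at 649 of the 22257 with none within 100 bp (2.92%, interval 2.70% to 3.15%). Csa13g011780 at any distance up to 100 bp was found at 4.49%, 6.54%, 7.61% and 10.5% of the sites in these classes, in the same order. Its lower frequency near Csa04g023980 was thus not limited to the 5 bp offset. Seen from the other side, Csa04g023980 was within 100 bp of 1.82% (interval 1.04% to 3.15%) of the 661 sites with Csa13g011780 at 5 bp. The share was 7.98% (6.82% to 9.31%) at the 1830 sites with Csa13g011780 elsewhere within 100 bp and 10.6% (10.2% to 11.0%) at the 22274 sites with none. The Csa09g088620 signal differed little between these classes, with medians of 80 (interval 77 to 83), 79.5 (78 to 81.7) and 77.2 (77 to 78). These values were found by looking through the lists and have no replicate.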
